A study of Mus musculus with 2 samples.

Results

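The MHC class I and class II genes considered here were 10 of the 31053 genes in the deposited matrices. Members were taken by gene symbol. Of these, 4 belong to the class I route, namely H2-K1, H2-D1, B2m and Tap1. The other 6 belong to the class II route, namely H2-Aa, H2-Ab1, H2-Eb1, H2-DMa, Cd74 and Ciita. All 10 had UMIs (unique molecular identifiers, each standing for 1 captured mRNA molecule) in both libraries.

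Class I molecules are carried by nearly all nucleated cells and show peptides made inside the cell to CD8 T cells. H2-K1 and H2-D1 encode the class I heavy chains, B2m the light chain that pairs with them, and Tap1 one subunit of the transporter that brings peptides into the endoplasmic reticulum. Class II molecules are mainly made by B cells, dendritic cells and some macrophages, and show peptides taken up from outside to CD4 T cells. H2-Aa and H2-Ab1 encode the alpha and beta chains of I-A, H2-Eb1 the beta chain of I-E, Cd74 the invariant chain that guides and blocks the new dimer, H2-DMa a chain of the peptide exchange factor, and Ciita the transactivator that switches class II transcription on. In the heart, resident macrophages of the Lyve1 and Timd4 kind are known for low class II, and Ccr2 macrophages and dendritic cells for high class II.

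Of the members, 7 lie in the major histocompatibility complex on chromosome 17 of the GRCm38 build, and B2m, Cd74 and Ciita lie elsewhere. H2-K1 (ENSMUSG00000061232) spans chr17:33996017-34000347 on the minus strand and H2-D1 (ENSMUSG00000073411) chr17:35262730-35267499. Between them are H2-DMa at chr17:34119541-34139101, Tap1 at chr17:34187553-34197225, H2-Ab1 at chr17:34257689-34269419, H2-Aa at chr17:34282744-34287823 on the minus strand and H2-Eb1 at chr17:34305867-34316674. B2m spans chr2:122147686-122153083, Cd74 chr18:60803848-60812652 and Ciita chr16:10480059-10528418, and all members without a strand given are on the plus strand. H2-K1, H2-D1 and the H2-Q genes are close in sequence, so reads may be left uncounted or given to the wrong gene, and their separate values are uncertain to that extent.

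The study took hearts at postnatal day 1 (P1) and day 7 (P7), ages at which the mouse heart can and can no longer regenerate, and sorted their live cells. There was 1 library per age, each from 3 littermate hearts pooled, so no test between ages was possible and every interval below covers counting error only. Collagenase digestion lasted 20 min at P1 and 45 min at P7. The labels name no treatment for either group, and the mouse strain is not given in the sources used here. The P1 pool held 57336 UMIs of Xist and 2 of Y-linked genes, and the P7 pool 12 and 18039, so that age, sex of the pool and digestion time cannot be told apart. Of 7836 barcodes at P1, 4991 passed the limits of 200 to 8000 genes and at most 20% mitochondrial UMIs, with a median of 10875 UMIs per cell. At P7, 8511 of 9077 passed, with a median of 10104 UMIs. Between the libraries 13 barcodes were shared.

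Cells were placed in 6 classes by a UMI of 1 marker and none of the other 5. These were Cdh5 for endothelium (1653 cells at P1, 3204 at P7), Pdgfra for fibroblasts (1112 and 2138), Kcnj8 for pericytes (267 and 440), Csf1r for macrophages (245 and 189), Cd79a for B cells (31 and 81) and Cd3e for T cells (4 and 192). Panels of 6 further markers per class checked the names. The macrophage panel, with Adgre1 and C1qa, stood at 5027 CPM (counts per 1000000 UMIs of the class) in macrophages at P1 and 8138 at P7, and at most 13.8 CPM in the other 5 classes. The B cell panel reached 6949 and 6531 CPM in B cells. The Kcnj8 class went partly against its name, since the fibroblast panel in it (7646 and 11758 CPM) exceeded the pericyte panel (4867 and 8873 CPM), and it is called the Kcnj8 class below. With only 4 T cells at P1, levels in T cells are given for P7.

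To show the control regions behind the 2 routes, promoters from the RefSeq table of GRCm38.p6 are printed for 5 members. That table held 7 of the 10 members, without H2-Ab1, Cd74 and Ciita. The 5 printed are those with a match to any motif below, and Tap1 and H2-DMa, with no match, are not printed. Each run is the 190 bases before the first start site listed, 5′ to 3′ on the gene's strand, and capitals mark a match to any of 4 motifs searched on both strands: GGGATTCCC (kappaB), GAAANNGAA (bound by interferon regulatory factors), AGNAACNGA (a core of the X box bound by RFX factors) and ATTGG (the core of the Y box bound by NF-Y). No overlaps between matches occurred in the runs shown.
H2-K1, chr17:34000348-34000537, minus strand: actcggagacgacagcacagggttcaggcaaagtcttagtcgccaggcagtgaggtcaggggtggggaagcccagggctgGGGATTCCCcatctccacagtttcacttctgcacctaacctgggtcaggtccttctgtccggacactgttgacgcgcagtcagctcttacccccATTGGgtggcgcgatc
H2-D1, chr17:35262904-35263093, plus strand: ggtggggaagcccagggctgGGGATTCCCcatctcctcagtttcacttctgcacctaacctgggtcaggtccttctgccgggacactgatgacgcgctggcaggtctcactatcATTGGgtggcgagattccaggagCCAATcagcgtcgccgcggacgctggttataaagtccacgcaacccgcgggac
B2m, chr2:122147497-122147686, plus strand: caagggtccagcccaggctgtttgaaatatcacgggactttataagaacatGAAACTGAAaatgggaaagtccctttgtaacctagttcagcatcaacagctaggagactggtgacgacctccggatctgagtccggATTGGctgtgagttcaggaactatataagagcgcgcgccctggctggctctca
H2-Aa, chr17:34287824-34288013, minus strand: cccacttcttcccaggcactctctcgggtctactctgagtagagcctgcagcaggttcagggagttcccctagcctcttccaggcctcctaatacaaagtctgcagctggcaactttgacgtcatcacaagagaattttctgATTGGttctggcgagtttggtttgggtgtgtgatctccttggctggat
H2-Eb1, chr17:34305677-34305866, plus strand: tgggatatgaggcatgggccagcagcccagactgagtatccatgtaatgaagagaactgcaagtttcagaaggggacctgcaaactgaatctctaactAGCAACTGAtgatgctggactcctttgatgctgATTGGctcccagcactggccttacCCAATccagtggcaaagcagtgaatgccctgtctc
The class I heavy chain genes shared the kappaB letters, 110 to 102 bases before the start in H2-K1 and 170 to 162 bases in H2-D1, a word present in 65 of 32851 promoters (0.198%). B2m held the interferon word 139 to 131 bases before its start, found in 5.22% of promoters. Interferon sites with their letters in another order were not searched. The search therefore cannot show that H2-K1, H2-D1 or the other members lack such a site. H2-Eb1 held the X box core 92 to 84 bases before its start, found in 3.24% of promoters. X boxes with other letters were not searched, so the search cannot show that H2-Aa or the other members lack one. The Y box core, found in 28.4% of promoters, lay in all 5 printed, which were those with any match. In Tap1 and H2-DMa none of the 4 words lay in this window. These matches are a description of letters and were not tied to binding.

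Over all cells, class I UMIs were plentiful and spread widely, whereas class II UMIs sat in few cells. Summed, the 4 class I members went from 1288 to 1019 CPM, and the 6 class II members from 156 to 159 CPM. The 10 cells richest in class II held 79.3% of all class II UMIs at P1 and 28.0% at P7, against 2.17% and 1.33% for the 10 cells richest in class I. Endothelium gave 49.4% of class I UMIs at P1 and 43.6% at P7. The Csf1r class, called macrophages here, gave 56.1% of class II UMIs at P1 and 18.4% at P7, while B cells went from 8.51% to 44.3%. With a gate on the macrophage panel in place of Csf1r, H2-Aa at P1 had 23 UMIs against 978. The P1 share is thus that of the Csf1r gate. A class II level of a class is therefore often the level of a few cells.

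No member was past 2-fold between the libraries when all cells were summed, where a gene needed 20 UMIs over both. Among all 16552 genes with that many UMIs, 4.07% were at least 2-fold higher at P7 and 8.88% at least 2-fold lower. The median log2 P7 over P1 ratio (0.5 UMI added to each sum) was -0.18 over the 10 members and -0.00 over all genes. Nearest to the fold was H2-Ab1, at 25.2 CPM and 12.8 CPM, a log2 ratio of -0.97 with a 95% interval from -1.08 to -0.87. H2-Eb1 stood at 10.9 and 17.8 CPM (log2 0.70), H2-Aa at 28.6 and 25.3 CPM (-0.17) and Cd74 at 79.1 and 92.0 CPM (0.22). The class II sum thus changed little, while H2-Ab1 was lower and H2-Eb1 higher at P7. With mitochondrial, ribosomal protein and haemoglobin genes out of the totals H2-Ab1 was past 2-fold at -1.01, and without cells above 3 times the median UMIs at -1.02. H2-Eb1 was past 2-fold at 1.38 after each cell was thinned to 2000 UMIs and at 1.57 as a mean of per-cell CPM.

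H2-D1 was the class I member with the largest difference between ages over all cells. Its levels of 683 and 449 CPM gave a log2 ratio of -0.61 (interval -0.63 to -0.59). H2-K1, its neighbour in function, went the other way, from 150 to 170 CPM (log2 0.18). B2m stood at 436 and 386 CPM (-0.18) and Tap1 at 18.1 and 13.9 CPM (-0.38). None of these reached 2-fold.

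In endothelium, the layer that lines vessels and chambers, H2-D1 fell from 1326.5 CPM at P1 to 921 CPM at P7 (log2 -0.53, interval -0.55 to -0.50). H2-K1 stood at 253 and 277 CPM (0.13), so the heavy chains did not move together. B2m was at 445 and 391 CPM and Tap1 at 28.7 and 20.4 CPM (-0.49). After each cell was thinned to 2000 UMIs, H2-D1 was seen in 85.4% of endothelial cells at P1 and 79.2% at P7. The same thinning gave 1 of 10 cells with H2-D1 among the P1 cells gated on Ryr2 as cardiomyocytes, a cell type known for little class I, where the median was 9478 UMIs against 10201 in endothelium. Unthinned, 1571 of 1653 endothelial cells had H2-D1 at P1 and 2998 of 3204 at P7, at medians of 10201 and 7526.5 UMIs.

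The endothelial difference in H2-D1 was widest in cells with Car4, a marker of capillaries. In them H2-D1 stood at 1628 CPM at P1 and 973 CPM at P7 (log2 -0.74, interval -0.78 to -0.71), with 698 and 1395 cells. Cells with Gja5, a marker of arteries, had 1765 and 1558 CPM (-0.18), and cells with Npr3, a marker of endocardium, 842 and 863 CPM (0.04). Cells with the lymphatic regulator Prox1 had 883 and 774 CPM, with overlapping intervals. H2-K1 differed by at most 0.17 on the log2 scale in these 4 groups. At P1 all 7 alveolar epithelial genes looked for were seen in the Car4 cells, summing to 69.3 CPM, and at P7 2 of 7 were, summing to 43.1 CPM. Without cells carrying Hoxa5 or at least 2 such genes, the endothelial H2-D1 ratio was -0.48, and the part of lung RNA in it was otherwise not tested.

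Fibroblasts showed the same opposed pair at lower levels. H2-D1 stood at 137 CPM at P1 and 93.7 CPM at P7 (log2 -0.55, interval -0.63 to -0.48), and H2-K1 at 65.5 and 84.2 CPM (0.36, interval 0.26 to 0.46). Their B2m stood at 365 and 326 CPM against 445 and 391 CPM in endothelium, a far smaller gap than that in H2-D1. Tap1 was at 6.93 and 7.04 CPM, below endothelium at both ages. In the Kcnj8 class H2-D1 stood at 240 and 200 CPM (-0.26) and H2-K1 at 94.0 and 115 CPM (0.29), but with a gate on the pericyte panel in place of Kcnj8 the H2-K1 ratio was -0.05. Smooth muscle, gated on Myh11, held 125 and 105 CPM of H2-D1 and 44.6 and 52.8 CPM of H2-K1, and the intervals of both ratios included 0. Cells gated on the epicardial marker Upk3b (28 and 9 cells) held 424 and 328 CPM of H2-D1, again with overlapping intervals.

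Macrophages had the highest levels of H2-D1 and B2m among the classes at both ages. With gates on the panels, H2-D1 at P1 stood at 1486 CPM in macrophages (1423 to 1551) and 1518 CPM in B cells (1329 to 1726), with overlapping intervals. In the classes as gated here, the values were as follows. H2-D1 was at 1768 and 1827 CPM (log2 0.05, interval -0.02 to 0.11), so the lower P7 level of the stromal and endothelial classes was not seen in this class. H2-K1 stood at 322 CPM at P1 and 445 CPM at P7 (0.47), B2m at 1419 and 1692 CPM (0.25) and Tap1 at 61.3 and 41.6 CPM (-0.55). B cells held 1210 and 1144 CPM of H2-D1, 522 and 429 CPM of H2-K1 and 466 and 465 CPM of B2m, each with intervals that overlapped between ages. Their Tap1 rested on 6 and 9 UMIs. At P7 the order of H2-D1 ran from macrophages (1827) through T cells (1188), B cells (1144), endothelium (921) and the Kcnj8 class (200) to fibroblasts (93.7), and only T cells and B cells were neighbours with overlapping intervals. The order of H2-K1 began with T cells (543 CPM), followed by macrophages and B cells, which overlapped.

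T cells at P7 fell into groups with different class I. The 89 cells with UMIs of at least 2 of 6 thymocyte genes (Rag1, Rag2, Dntt, Ptcra, Cd8a and Cd8b1, of which the last pair is also made by mature CD8 T cells) held 284 CPM of H2-K1 and 669 CPM of H2-D1. In the other 103 T cells H2-K1 was at 813 CPM and H2-D1 at 1728 CPM. B2m stood at 588 and 1102 CPM, while Tap1 was alike at 48.6 and 46.0 CPM. After thinning, H2-D1 was seen in 37.5% of the former and 85.6% of the latter. The median depth was 4119 UMIs in the former and 5326 in the latter, and whether any of these cells came from thymus was not tested.

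**Figure D1:**
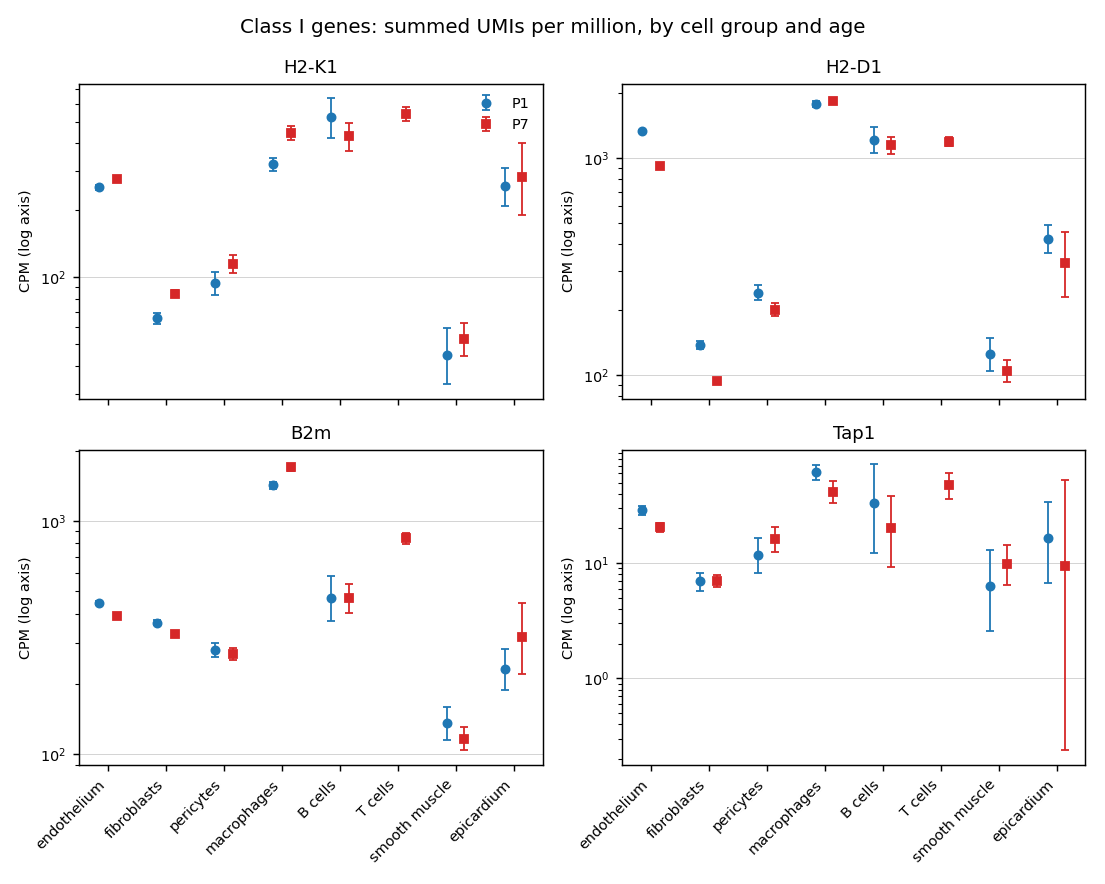
Levels of the 4 class I members (CPM, log axis) in 8 cell groups at P1 (circles) and P7 (squares), with exact Poisson 95% intervals. H2-D1 at P7 lies below P1 in endothelium (921 against 1326.5) and fibroblasts (93.7 against 137) and H2-K1 above, while macrophages are highest for H2-D1 and B2m. T cells are shown at P7 only, and the Kcnj8 class is labelled pericytes.

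In B cells the class II genes stood far higher at P7. Cd74 went from 3724 CPM at P1 (671 UMIs, 14 of 31 cells) to 10314 CPM at P7 (4588 UMIs, 70 of 81 cells), a log2 ratio of 1.47 (interval 1.35 to 1.59). H2-Aa rose from 294 to 2383 CPM (3.01, interval 2.62 to 3.44) and H2-Ab1 from 155 to 897 CPM (2.51). Both chains of I-A therefore differed by more than the invariant chain. At P1 H2-Aa was seen in 4 of 31 B cells and 1 of them held 32 of the 53 UMIs, against 56 of 81 cells at P7. Without the richest cell at each age H2-Aa stood at 121 and 2311 CPM. H2-Eb1 rose from 128 to 1506 CPM (3.53) and H2-DMa from 27.8 to 256 CPM (3.08), on 5 UMIs at P1 for the latter. The richest cell held 14 of the 23 H2-Eb1 UMIs and 3 of the 5 H2-DMa UMIs at P1. Ciita went from 1 UMI to 14, a log2 ratio of 1.97 with an interval from -0.21 to 7.91. Of the 8 members with 20 UMIs in B cells 5 were at least 2-fold higher at P7, all 5 of them class II, and none was lower. Over all 4267 genes measured in B cells 7.71% were at least 2-fold higher and 8.76% lower. The member median was 1.99 and the median of all genes -0.08.

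In B cells the share of cells with class II was higher at P7 as well. Cd74 was seen in 45.2% of B cells at P1 and 86.4% at P7, at median depths of 5153 and 5122 UMIs. T cells, which make little class II in the mouse, gave 2.08% at P7 with a median of 5065.5 UMIs. Thinned to 2000 UMIs the shares were 43.3% (30 cells), 90.7% (75 cells) and 0.588% (170 cells). H2-Eb1 went from 6.67% to 61.3% of thinned B cells, and was seen in 0 of 170 T cells, which allows a share of up to 1.76%. The 5 B cells richest in class II held 211, 110, 87, 84 and 49 such UMIs at P1 and 236, 195, 183, 181 and 175 at P7.

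Genes that mark steps of B cell development differed between the same cells, in a list chosen after the values were seen. Rag1, the recombinase of early stages, went from 66.6 to 11.2 CPM, and Vpreb1, a surrogate light chain gene, from 189 to 11.2 CPM, in 2 cells and 1 cell. Igll1, its partner, was at 105 CPM at P1, in 2 cells, and had no UMI at P7. Genes of mature naive B cells were higher at P7, with Ighd at 66.6 and 524 CPM, Fcer2a at 27.8 and 407 CPM and Ms4a1 at 655 and 1155 CPM. Of 31 cells at P1 and 81 at P7, Ighd was seen in 9 and 57, Fcer2a in 1 and 39 and Ms4a1 in 12 and 68. The part of this shift in the class II values was not tested.

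Most macrophages held Cd74 or H2-DMa without I-A or I-E. At least 1 class II UMI was seen in 147 of 245 macrophages at P1 and 136 of 189 at P7, yet H2-Aa or H2-Ab1 was seen in 12 and 7. In these few cells the I-A counts were high, up to 331 H2-Aa UMIs in 1 cell. Cd74 stood at 998 and 732 CPM (log2 -0.45), H2-Aa at 375 and 244 CPM (-0.62) and H2-Ab1 at 323 and 177 CPM (-0.87). H2-Eb1 was level at 135 and 133 CPM (-0.02). H2-DMa, in contrast, was higher at P7, at 139 and 207 CPM (0.58, interval 0.37 to 0.79), and was spread over 124 and 117 cells. Ciita had 13 and 8 UMIs.

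No member was past 2-fold in macrophages, against 2.89% of 10001 genes at least 2-fold higher at P7 and 6.36% lower. The median over members was -0.12 and over all genes 0.02. The single richest cell held 34.3% of macrophage class II UMIs at P1 and 43.9% at P7, the P7 cell with UMIs of 5 dendritic cell genes. Without the richest cell of each library H2-Aa stood at -1.52 and H2-Ab1 at -1.47 on the log2 scale, both past 2-fold. With 2 UMIs of Csf1r required the H2-Aa ratio was -2.27, and with a gate on the macrophage panel (92 and 106 cells) it was 3.78, with H2-Aa at 16.4 and 230 CPM and Cd74 at 228 and 694 CPM. The direction of I-A in macrophages thus differed between gates. At P1 the macrophage panel gate held 23 H2-Aa UMIs, against 978 in the Csf1r class. The fibroblast panel gate held 596 at P1, against 26 in the Pdgfra class. The Csf1r cells rich in I-A at P1 were thus mostly outside the macrophage panel gate. Which gate they entered was not tested.

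Macrophages were then divided by Ccr2. Cells with Ccr2 and none of Lyve1, Timd4 and Folr2 (95 at P1, 72 at P7) held 2060 and 1650 CPM of Cd74, and cells with Lyve1, Timd4 or Folr2 and no Ccr2 (20 and 42) held 96.4 and 97.3 CPM. H2-Aa was at 830 and 652 CPM in the Ccr2 cells, in 6 and 5 cells, against 1 UMI at each age in the others. The 5 cells with the most Cd74 held 2243 of the 2366 Cd74 UMIs of the Ccr2 cells at P1 and 985 of 1165 at P7. The other Ccr2 cells stood at 115 CPM (interval 95.9 to 138) and 280 CPM (240 to 324), an alternative chosen after seeing the data. With their own 5 richest cells left out, the Lyve1, Timd4 or Folr2 cells stood at 51.1 CPM (25.5 to 91.4) and 68.1 CPM (47.2 to 95.2). The gap in Cd74 was thus far smaller without 5 cells of each group. At P1 those were 5 of 95 Ccr2 cells but 5 of 20 of the others, where they held 17 of 28 Cd74 UMIs. The lack of overlap at P1 depends on this unequal cut. With only the richest cell left out, the Lyve1, Timd4 or Folr2 cells stood at 79.0 CPM at P1 (49.5 to 120), which overlaps the trimmed Ccr2 interval. At P7 they stood at 89.5 CPM (66.4 to 118), below it. H2-DMa in the Lyve1, Timd4 or Folr2 cells went from 37.9 to 137 CPM (log2 1.80, interval 0.93 to 2.91), with no such difference in their Cd74 (0.00, interval -0.66 to 0.72). Macrophages with none of these 4 genes (125 and 68) went from 70.5 to 163 CPM of H2-DMa and from 186 to 325 CPM of Cd74. Ccr2 cells held 231 and 309 CPM of H2-DMa (0.42, interval 0.16 to 0.69). H2-DMa was thus higher at P7 in all 3 groups, and whether the groups differ in it was not tested. Tap1 in the Ccr2 cells went the other way, from 81.8 to 38.2 CPM (-1.08).

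A group of cells with UMIs of at least 2 of 8 dendritic cell genes, such as Flt3 and Clec9a, and none of the T and B markers held high levels of I-A at P1. These 12 cells at P1 and 20 at P7 had 4680 and 1051 CPM of H2-Aa and 9254 and 2178 CPM of Cd74. H2-Aa was seen in 6 of 12 and 4 of 20 of them, and at P7 1 cell, which was also the richest macrophage, held 300 of the 315 H2-Aa UMIs. Few cells thus set both levels. Without such cells, an alternative chosen after seeing the data, macrophages held 719 and 431 CPM of Cd74, and their ratios were -1.37 for H2-Aa and -1.66 for H2-Ab1.

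**Figure D2:**
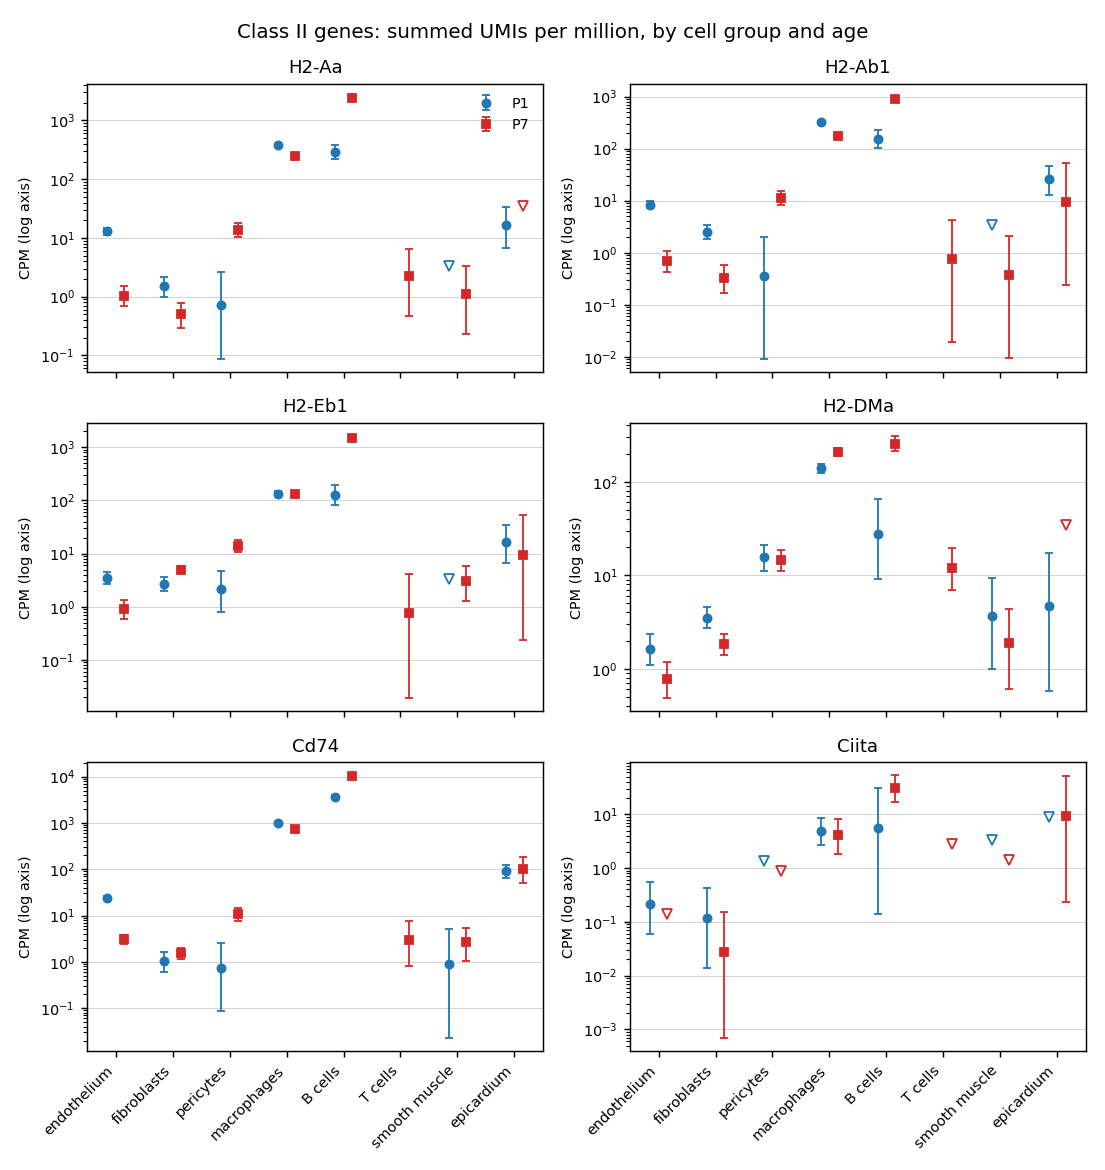
Levels of the 6 class II members (CPM, log axis) in the same cell groups at P1 (circles) and P7 (squares), with exact Poisson 95% intervals and open triangles at the upper bound where no UMI was seen. B cells lie highest at P7 for Cd74 (10314) and H2-Aa (2383), and the endothelial P1 points lie above P7 because 866 of their 918 class II UMIs come from 1 cell.

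In endothelium the class II members looked far higher at P1, but 1 cell made that difference. H2-Aa stood at 12.9 CPM at P1 and 1.04 CPM at P7 (log2 -3.61), H2-Ab1 at 8.37 and 0.71 CPM (-3.54), H2-Eb1 at 3.50 and 0.93 CPM (-1.90), H2-DMa at 1.64 and 0.78 CPM (-1.06) and Cd74 at 23.6 and 3.12 CPM (-2.91). These were 5 of the 9 members measured, all lower at P7, with none higher, against 5.42% lower and 3.82% higher over 13507 genes, and medians of -1.06 and 0.06. One P1 cell held 866 of the 918 class II UMIs, with 228 of H2-Aa and 416 of Cd74. It had 1 UMI of Cdh5, 1 of the 6 endothelial panel genes, 6 UMIs of the leukocyte gene Ptprc and 2 of the dendritic cell gene Clec9a. Without the richest cell of each library the ratios were 1.19 for H2-Aa, 1.76 for H2-Ab1, 0.20 for H2-Eb1, 0.47 for H2-DMa and 1.87 for Cd74, all turned in sign.

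What endothelium held without that cell was low. Among the endothelial cells without a UMI of 9 immune genes, the P1 level of Cd74 was 0.69 CPM (interval 0.33 to 1.27) and the P7 level 3.14 CPM (2.43 to 3.99). The log2 ratio between these was 2.12 (1.21 to 3.31). T cells at P7, which make little class II, held 3.01 CPM on 4 UMIs. Their interval (0.82 to 7.69) was too wide to place the P7 endothelial level above or below theirs. P7 fibroblasts held 1.55 CPM (1.17 to 2.01), with an interval below that of these endothelial cells. In the same endothelial cells H2-Aa was at 0.55 and 0.94 CPM. Of the 44 endothelial cells with H2-Aa or H2-Ab1 at P7, 42 had no Cd74. H2-Aa in T cells was at 2.25 CPM, on 3 UMIs.

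In fibroblasts the class II genes split, with H2-Eb1 higher at P7 and H2-Aa and H2-Ab1 lower. H2-Eb1 stood at 2.72 CPM at P1 (47 UMIs in 34 cells) and 4.96 CPM at P7 (179 UMIs in 156 cells), a log2 ratio of 0.86 (interval 0.40 to 1.36). No P7 fibroblast held more than 3 UMIs of it, so the level did not rest on a few rich cells. H2-Aa stood at 1.502 and 0.499 CPM (-1.58) and H2-Ab1 at 2.48 and 0.33 CPM (-2.86). H2-DMa was at 3.52 and 1.83 CPM (-0.95) and Cd74 at 1.04 and 1.55 CPM (0.55, interval -0.21 to 1.43). Of 9 members measured, 2 were at least 2-fold lower at P7 and none higher, against 7.11% lower and 4.07% higher over 13954 genes, with medians of -0.16 and -0.04.

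The H2-Eb1 of fibroblasts made up a larger part of the class II chains than in the immune classes. Of the UMIs of H2-Eb1, H2-Aa and H2-Ab1 together, H2-Eb1 made up 85.6% in P7 fibroblasts (interval 80.1% to 90.1%), against 31.5% in P7 B cells and 24.0% in P7 macrophages. In P7 endothelium it was 34.7%. In the whole Kcnj8 class it was 36.0% at P7 (interval 28.6% to 44.0%), below the share in fibroblasts. Without Wif1 cells it was 65.7% there at P7 (interval 47.8% to 80.9%), which overlapped the share in fibroblasts. At P1 the share was 40.5% in fibroblasts, and 60.7% once cells with Wif1 were left out. T cells held 0.75 CPM of H2-Eb1 at P7 (interval 0.02 to 4.19), so its interval ended below that of P7 fibroblasts (4.26 to 5.74). Thinned to 2000 UMIs, H2-Eb1 was seen in 1.23% of P7 fibroblasts and 0.562% of P1 fibroblasts, both under the 1.76% that 0 of 170 T cells allows, so the share of cells did not separate them at this depth. The unthinned shares were 156 of 2138 fibroblasts at a median of 16720 UMIs and 1 of 192 T cells at 5065.5. Read sharing with a neighbouring gene was not tested.

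Of the 5 fibroblasts richest in class II at P1, 3 carried Wif1, which encodes a secreted inhibitor of Wnt signalling. The richest P1 fibroblast held 29 class II UMIs, 43 of Wif1, 14 of Col9a3 and 1 of Pdgfra. Leaving out every fibroblast with Wif1, an alternative chosen after seeing the data, brought H2-Aa to 0.60 and 0.51 CPM (log2 -0.27) and H2-Eb1 to 2.05 and 5.01 CPM (1.27). The gap in H2-Aa between ages was thus small without these cells, and that in H2-Eb1 was not. H2-Ab1 then stood at 0.72 and 0.28 CPM (-1.34).

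In the Kcnj8 class 4 class II members stood at least 2-fold higher at P7. H2-Aa was at 0.72 CPM at P1 (2 UMIs) and 13.6 CPM at P7 (56 UMIs in 8 cells), a log2 ratio of 3.93 (interval 2.32 to 7.32). H2-Ab1 was at 0.36 and 11.4 CPM (4.42, interval 2.44 to 10.3), on 1 and 47 UMIs, H2-Eb1 at 2.16 and 14.1 CPM (2.60) and Cd74 at 0.72 and 10.7 CPM (3.58, interval 1.95 to 6.98), the P7 UMIs of these 3 genes lying in 10, 28 and 14 cells. No member of 9 was lower, and over 11419 genes 2.64% were higher and 3.45% lower, with medians of 0.44 and 0.01. The 4 richest P7 cells held 88, 41, 28 and 10 of the 265 class II UMIs. They had 38, 42, 32 and 17 UMIs of Wif1, between 1 and 3 of Kcnj8, 2 or 3 of the 6 pericyte panel genes and none of Ptprc. Without cells with Wif1, H2-Aa was at 0.39 and 1.57 CPM, on 1 and 6 UMIs (1.54, interval -1.04 to 7.53). With a gate on the pericyte panel (206 and 483 cells) H2-Aa had 0 UMIs at P1 and 4 at P7.

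H2-DMa behaved otherwise in the Kcnj8 class. It stood at 15.5 CPM at P1 and 14.6 CPM at P7 (log2 -0.09, interval -0.68 to 0.51), in 32 and 46 cells with at most 3 and 5 UMIs each. That level was above fibroblasts (3.52 and 1.83 CPM) and endothelium (1.64 and 0.78 CPM) at both ages beyond the counting intervals, and overlapped T cells (12.0 CPM). Without Wif1 cells it was 16.0 and 13.1 CPM. In smooth muscle H2-DMa was at 3.64 and 1.89 CPM, on 4 and 5 UMIs.

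Cells with at least 2 UMIs of Wif1 and none of Ptprc, 111 at P1 and 98 at P7, were then pooled, a group formed after the values were seen. H2-Aa stood at 22.1 and 38.4 CPM (log2 0.79, interval 0.18 to 1.44), H2-Ab1 at 28.4 and 35.9 CPM (0.34, interval -0.25 to 0.94) and H2-Eb1 at 12.0 and 24.2 CPM (0.99). These levels were above those of fibroblasts at both ages. They rested on few cells, since 5 cells held 29 of the 35 H2-Aa UMIs at P1 and 57 of 62 at P7, and without those 5 H2-Aa stood at 3.96 CPM (interval 1.45 to 8.63) and 3.31 CPM (1.07 to 7.71). Cd74 was at 6.30 and 22.3 CPM. The macrophage panel summed to 6.30 CPM in these cells at P1 and 148 CPM at P7 (in 10 cells), and the 9 immune genes to 16.4 and 321 CPM. Their part in the P7 values was not tested. Of the cells with H2-Aa or H2-Ab1, 19 of 21 at P1 and 13 of 17 at P7 had no Cd74 UMI, at median depths of 14030 and 16023 UMIs. Each of the 12 and 7 such macrophages had Cd74. Fibroblasts were like the Wif1 cells, with no Cd74 in 20 of 27 such cells at P1 and 27 of 27 at P7. Without Wif1 these were 12 of 16 and 25 of 25, so the trait was not particular to Wif1 cells. In the Wif1 cells Ciita had 2 UMIs at P1 and 0 at P7.

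**Figure D3:**
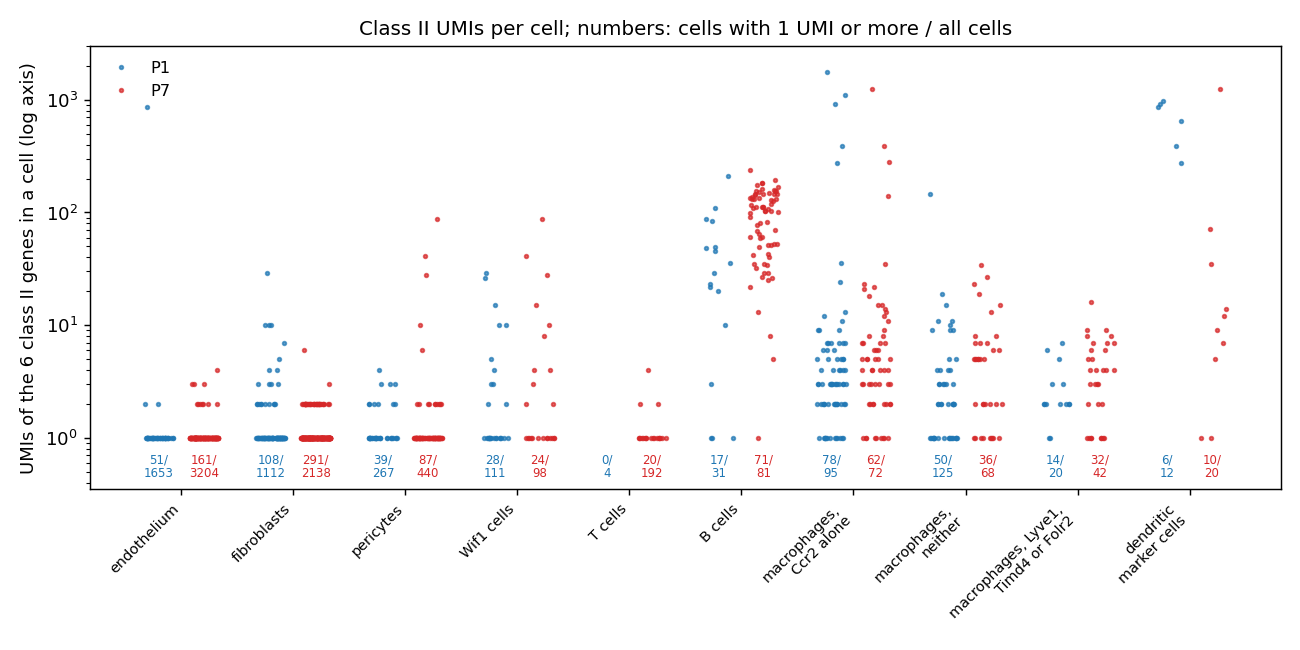
UMIs of the 6 class II members in each cell with at least 1 (log axis), by class and age, with the number of such cells over all cells below. B cells form a broad band that is fuller at P7 (71 of 81 cells) than at P1 (17 of 31), and 1 P1 endothelial cell with 866 UMIs stands alone.

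The share of Cd74 among the UMIs of Cd74, H2-Aa and H2-Ab1 was compared between groups, a measure that does not depend on depth or scaling. It was 89.2% in B cells at P1 and 75.9% at P7 (interval 74.8% to 76.9%). In Ccr2 macrophages it was 57.1% and 59.5%, and in the cells with dendritic genes 52.3% and 55.5%. Macrophages with Lyve1, Timd4 or Folr2 stood at 96.6% at both ages, on 29 and 59 UMIs. Wif1 cells were lowest, at 11.1% (interval 5.46% to 19.5%) and 23.1% (16.7% to 30.5%), both with intervals below those of the immune groups named here. Fibroblasts stood at 20.7% at P1 (12.7% to 30.7%) and 65.1% at P7, and the Kcnj8 class at 29.9% at P7 (22.7% to 38.0%). The P1 fibroblast and P7 Kcnj8 intervals overlapped those of Wif1 cells at the same age. Without Wif1 cells these shares were 38.9% (23.1% to 56.5%) and 47.8% (26.8% to 69.4%). These intervals treat UMIs as separate draws, though few cells carried them. In Wif1 cells 1 cell held 7 of the 10 Cd74 UMIs at P1 and 24 of 36 at P7. In Ccr2 macrophages 5 cells held 2243 of 2366 and 985 of 1165. The Ccr2 group and the cells with dendritic genes also share cells. At P7 1 cell of both held 571 of the 653 Cd74 UMIs of the cells with dendritic genes.

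**Figure D4:**
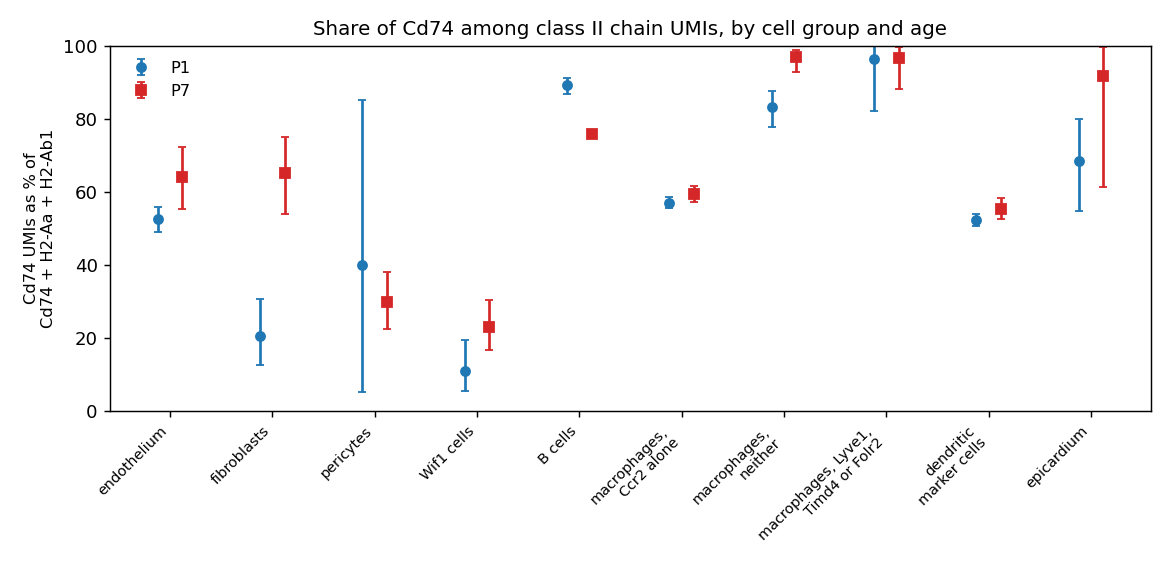
Cd74 UMIs as a percentage of Cd74, H2-Aa and H2-Ab1 UMIs, by cell group at P1 (circles) and P7 (squares), with exact Clopper-Pearson 95% intervals. Wif1 cells sit at 11.1% and 23.1%, Ccr2 macrophages and cells with dendritic genes, which share cells, between 52.3% and 59.5%, and B cells at 89.2% and 75.9%.

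Ciita, the transactivator, was rare. It had 30 UMIs at P1 and 42 at P7 over all cells (0.51 and 0.43 CPM). In B cells it stood at 5.55 and 31.5 CPM, in macrophages at 4.98 and 4.21 CPM, and in the cells with dendritic genes at 81.4 and 26.7 CPM on 17 and 8 UMIs. Endothelium had 4 UMIs at P1, 2 of them in 1 cell, and 0 at P7, which allows up to 0.111 CPM. The Kcnj8 class had 0 at both ages, which allows up to 1.08 and 0.728 CPM.

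Cells that passed more than 1 gate marker were left out of the classes and took a growing part of class II. They held 3.42% of class II UMIs at P1 (621 cells) and 29.8% at P7 (1088 cells). At P7 the pairs of B cell and endothelial markers (31 cells) held 11.2%, of endothelial and macrophage markers (74 cells) 7.91% and of macrophage and pericyte markers (19 cells) 6.86%. A cell with a further marker counted in every pair it matched, so these shares can overlap. At P7 1 cell with several markers held 686 of the 4608 class II UMIs of all such cells. Cells with no gate marker held 19.2% and 2.33%, and at P1 a pair of such cells, with 970 and 647 class II UMIs, each had UMIs of 2 dendritic cell genes. These cells are counted in the sums over all cells but in no class.

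**Figure D5:**
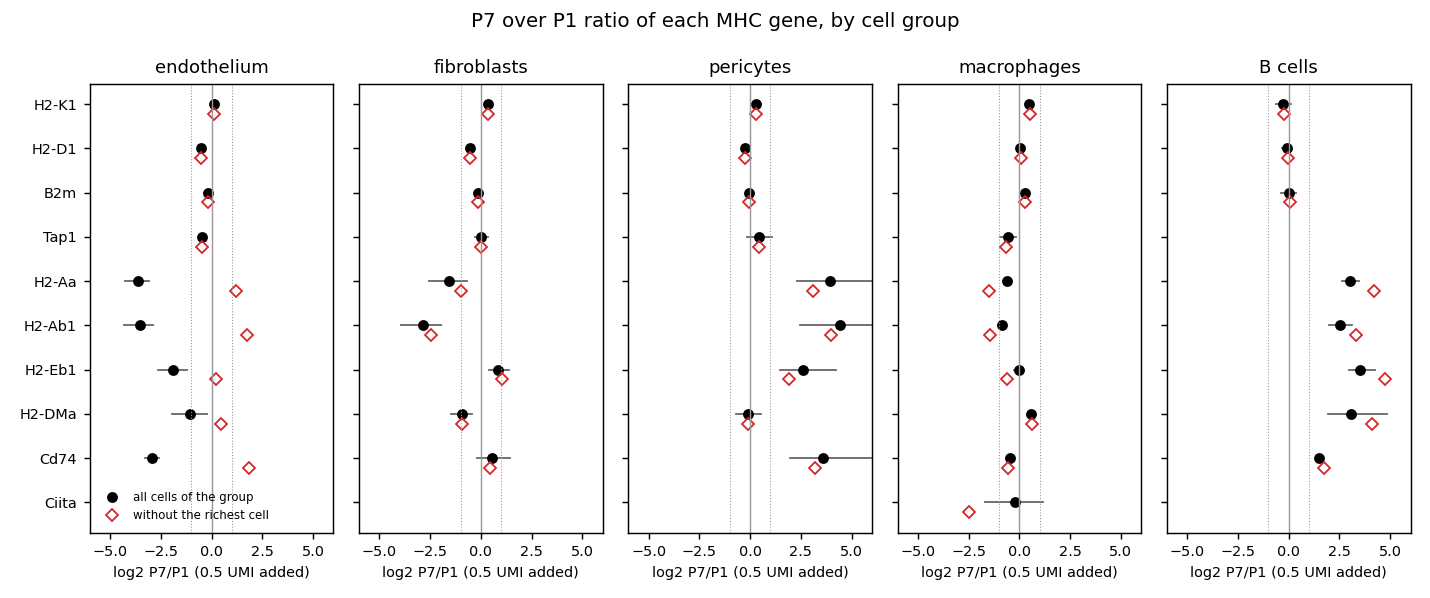
Log2 ratio of P7 over P1 (0.5 UMI added) of each member in each cell group, with exact binomial 95% intervals cut at the frame, and red diamonds for the ratio without the richest class II cell of each library. Class I members lie between the dotted 2-fold lines in every class, B cell class II lies to the right with and without that cell, and endothelial class II changes side.

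Further genes of the class I route were mostly level. In endothelium 0 of 19 genes measured were past 2-fold, 19 of 19 ratios were above 0 and their median was 0.32, beside 0.06 for all genes. H2-Q7, a class I gene close in sequence to H2-K1, stood at 5.80 and 10.4 CPM in endothelium (log2 0.83), and H2-M3, a class I gene that shows formylated peptides, at 13.1 and 20.6 CPM (0.65). Over all cells 0 of 20 were past 2-fold (median 0.12), and in fibroblasts 0 of 19 (median 0.03). In macrophages 2 of 19 were higher, H2-Q7 at 9.19 and 30.01 CPM (1.69) and H2-Q4 at 23.7 and 51.1 CPM (1.10). In the Kcnj8 class 3 of 16 were higher, among them the immunoproteasome subunit Psmb8 at 8.28 and 25.2 CPM (1.58). In B cells 1 of 12 was higher, and no gene of this list was 2-fold lower in any class measured. Of all genes 2.89% were higher in macrophages, 2.64% in the Kcnj8 class and 7.71% in B cells. Those lower ranged from 3.45% in the Kcnj8 class to 8.76% in B cells.

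Further genes of the class II route were mostly higher at P7 in B cells. There 8 of 10 measured were at least 2-fold higher at P7 and 1 was lower, with a median of 1.48, against 7.71% higher and 8.76% lower over all genes. H2-DMb2, partner of H2-DMa, stood at 94.4 and 544 CPM (log2 2.49). H2-Ob, a chain of the inhibitor of that exchange factor, stood at 27.8 and 157 CPM (2.38). March1, a ligase that removes class II from the surface, stood at 38.9 and 128 CPM (1.63). Most of the 8 had few UMIs at P1. There were 0 for H2-DMb1, 5 each for H2-Ob, Cd86 and Cd40, 6 for H2-Oa and 7 for March1. Each of these genes reached the minimum of 20 UMIs on its P7 UMIs alone. Their ratio intervals began at 0.052 for Cd86 and Cd40, 0.501 for H2-Oa, 0.586 for March1, 1.08 for H2-DMb1 and 1.21 for H2-Ob. H2-DMb2 and Ctss had 17 and 26 UMIs at P1. In macrophages none of 10 was past 2-fold, in the Kcnj8 class none of 6, in endothelium 1 of 8 higher and 2 lower, and in fibroblasts 1 of 7 higher and 1 lower. The shares of all genes were 2.89% higher and 6.36% lower in macrophages and 2.64% and 3.45% in the Kcnj8 class. They were 3.82% and 5.42% in endothelium and 4.07% and 7.11% in fibroblasts. Over all cells 2 of 13 were higher and 2 lower, against 4.07% and 8.88% of all genes. The lysosomal protease Ctss was among the lower ones, at 86.2 and 40.9 CPM (-1.08). The 1 lower gene in B cells, named after its value was seen, was Rfxap, a subunit of the complex that binds the X box, at 94.4 and 29.2 CPM (-1.68).

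Interferons are known inducers of MHC genes, so their response genes were set beside the members. The type I list fell over all cells, with 7 of 10 at least 2-fold lower at P7, none higher and a median of -1.47. Of all genes 8.88% were lower and 4.07% higher. Irf7, a regulator of this response, stood at 19.3 and 5.20 CPM (log2 -1.89), Ifit1 at 5.12 and 1.01 CPM (-2.34) and Mx1 at 1.03 and 0.13 CPM (-2.91). Genes at least 2-fold lower numbered 6 of 9 in endothelium, 5 of 8 in fibroblasts (with 1 higher) and 6 of 10 in macrophages (with 1 higher). The shares of all genes in these 3 classes were 5.42%, 7.11% and 6.36% lower and 3.82%, 4.07% and 2.89% higher. In the Kcnj8 class 1 of 6 was at least 2-fold lower (3.45% of all genes), 3 of 6 ratios were above 0 and the median was -0.16. In B cells the 1 gene measured was lower (8.76% of all genes). The gamma list leaned lower by less. Over all cells 1 of 14 was at least 2-fold higher and 1 lower, 4 of 14 ratios were above 0 and the median was -0.46. Its median was -0.47 in endothelium (4 of 14 above 0), -0.42 in fibroblasts (2 of 11), -0.49 in the Kcnj8 class (3 of 9) and -0.35 in macrophages (4 of 12). In B cells it was 0.36 (3 of 5). Medians of all genes lay between -0.08 and 0.06. Cxcl9, a T cell attracting chemokine, went from 1.00 to 4.69 CPM (2.22), and Iigp1, an interferon-induced GTPase, from 18.7 to 3.39 CPM (-2.46). Fibroblasts had 5 of 11 genes of the gamma list lower, Irf1 among them at 22.2 and 9.005 CPM (-1.30), and macrophages 1 of 12 higher and 1 lower. Whether the H2-D1 levels are linked to these genes was not tested.

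The genes with the pattern most like Cd74 over 11 class and library values were Fgd2 (Pearson r of log2 levels 0.98), Dok3, Cd180, Bank1 and Rnase6 (each 0.97). Among the members, H2-Aa stood at 0.99 with Cd74, H2-Ab1 at 0.97 and H2-DMa at 0.80. Most like H2-K1 were Tapbpl (0.99), Psmb8 (0.98), Il16, Psmb9 and H2-Q6 (each 0.97), and H2-D1 stood at 0.93 with it. The 11 values share 2 libraries and the same classes at both ages, and the correlations are a description.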

How the data were processed

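Single cells of P1 and P7 mouse hearts were profiled by droplet 3′ RNA sequencing, 1 library per age. The authors deposited UMI counts per gene and barcode, made with Cell Ranger 3.1.0 on mm10 (GRCm38) per the submitters' processing notes. Barcodes with 200 to 8000 genes and at most 20% mitochondrial UMIs were kept (59026295 UMIs at P1, 97432007 at P7), and UMIs were summed per class and scaled to CPM. With 1 library per age no test was made. Levels have exact Poisson intervals, ratios exact conditional binomial intervals and shares Clopper-Pearson intervals, all at 95%, and where no UMI was seen the upper limit is 3 counts. The 8000-gene limit removed 0 barcodes at P1 and 1 at P7. Doublets were otherwise treated only by leaving cells with a second gate marker out of the classes, and such cells stay in the sums over all cells. The members and lists were chosen with earlier results of these data known. Named genes were the 10 members, the 3 largest ratios per list and class that had 50 or more UMIs in 1 library, and the 5 genes most like Cd74 and H2-K1. Likeness used log2 levels of classes with at least 20 cells and genes with at least 100 UMIs. Ifi30 and H2-Ea were not analysed here. The ratio script was tested on simulated data. Positions are from GENCODE and promoters from RefSeq (GRCm38.p6). Alternatives covered gates, cell filters, thinning to 2000 UMIs and scaling, and 4 were chosen after seeing the data (without the richest class II cell, Wif1 cells, cells with dendritic genes or the 1 or 5 cells richest in a member). Python 3.11.15, numpy 2.4.6, scipy 1.17.1, pandas 2.3.3 and matplotlib 3.10.9 were used.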

Additional observations from a re-analysis of the deposited data

Results flagged for a closer look

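With every cell of a class summed, the same member had ratios of opposite sign in different classes, on the log2 scale of P7 over P1. H2-Aa stood at 3.93 in the Kcnj8 class and -3.61 in endothelium, H2-Ab1 at 4.42 and -3.54, and Cd74 at 3.58 and -2.91. H2-Eb1 stood at 3.53 in B cells and -1.90 in endothelium, and H2-DMa at 3.08 in B cells and -1.06 in endothelium. These differences between classes were not tested, since each age has 1 library. The endothelial values turned in sign without 1 P1 cell, so these pairs were then no longer opposed. The Kcnj8 values rested on few cells as well. Without Wif1 cells H2-Aa had 1 and 6 UMIs there, and with the pericyte panel gate 0 and 4.

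Barcodes left out by the limits also held MHC UMIs. At P1 those with too few genes held 310 class I and 29 class II UMIs, and those over the mitochondrial limit 903 and 34. At P7 those with too few genes held 24 class I and 9 class II UMIs, and those over the mitochondrial limit 444 and 190.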

How the results depend on the processing

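Over all alternatives, 806 of 960 member ratios stayed inside the counting interval of the ratio reported and the others left it. A ratio past 2-fold turned in sign in 27 cases and fell within 2-fold in 6, and 33 ratios came past 2-fold, 6 of them with the other sign. In endothelium, in the order of at least 2 Cdh5 UMIs, cells with a second gate marker kept, the panel gate, cells with immune genes left out and the richest class II cell left out, the log2 ratio was 1.15, 0.52, 3.35, 0.71 and 1.19 for H2-Aa, 1.59, 0.26, 4.01, 1.67 and 1.76 for H2-Ab1, 0.20, 1.66, 1.49, 0.15 and 0.20 for H2-Eb1, 0.18, 0.62, 0.54, 0.28 and 0.47 for H2-DMa, and 1.77, 1.16, 3.72, 2.12 and 1.87 for Cd74. In fibroblasts H2-Aa stood at 0.15 with at least 2 Pdgfra UMIs and 0.72 with a second gate marker kept. The number of members at least 2-fold higher at P7, 0 over all cells, was 1 after thinning and 2 with the mean of per-cell CPM. In endothelium, in place of 0, it was 2, 2, 4, 1 and 3 in the order above, and the number lower fell from 5 to 0 in each. In fibroblasts, in place of 0, it was 1 with at least 2 Pdgfra UMIs, 2 with a second marker kept, and 1 each with per-cell CPM, without the richest cell and without Wif1 cells. In the Kcnj8 class, in place of 4, it was 2 with the panel gate, 0 after thinning, 2 with a minimum of 50 UMIs and 1 without Wif1 cells. No ratio past 2-fold in the Kcnj8 class fell within 2-fold or turned in sign in any setting. Its counts fell because members came under the UMI minimum. In macrophages the number higher was 5 with the panel gate in place of 0. Lower members in macrophages, 0 as reported, numbered 4 with at least 2 Csf1r UMIs, 2 each without the richest cell and without cells with dendritic genes, and 1 each after thinning and without cells above 3 times the median UMIs. Over all cells 1 member was lower, in place of 0, in that last setting and with mitochondrial, ribosomal protein and haemoglobin genes out of the totals. In fibroblasts the number lower, 2 as reported, ranged from 0 to 3, with 3 under the panel gate and 0 after thinning. After thinning H2-Aa stood at -0.50 in fibroblasts, while H2-Ab1 and H2-DMa were still past 2-fold but under the UMI minimum. The fibroblast panel gate held 596 H2-Aa UMIs at P1, against 26 in the Pdgfra class. In endothelium thinning left 2 lower, and the others stayed past 2-fold but came under the UMI minimum. Beyond the gates, cells and UMI minimum named, the cause was not tested. No paired analysis was possible because each age has 1 library, and for the same reason no replicate could be left out. The P1 values of B cells and T cells rest on 31 and 4 cells. Cd74 in P7 endothelium (3.12 CPM) and fibroblasts (1.55 CPM) lay inside the interval of P7 T cells (0.82 to 7.69 CPM), which rests on 4 UMIs.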
